A study of Oryza sativa Japonica Group with 10 samples.

Results

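A set of 125 rice genes had a transcript level that was high in 1 of the 2 drought-stressed libraries of the wild type ZH11 and not in the other. Genes were chosen by their FPKM, a level in fragments scaled to transcript length and library size. A gene was taken when it had at least 2 FPKM in ZH11 drought replicate 1 and at least 4 times the level in replicate 2 (0.1 FPKM added to the latter). The 2 drought libraries of the OsJAZ1-OE plants also had to lie within 2-fold of each other (0.1 FPKM added to both). Of 55689 gene IDs in the files, 18276 reached 2 FPKM in ZH11 drought replicate 1 and 148 passed the gap in ZH11. The limit on OsJAZ1-OE removed 21 of these, 13 that were over 2-fold higher in its replicate 1 and 8 over 2-fold lower, and OsDREB1B (LOC_Os09g35010) and OsDREB1A (LOC_Os09g35030) were left out by name. The members were thus selected on the 4 drought libraries. Every value of these libraries that bears on the gap in ZH11, on ZH11 under drought or on the genotypes under drought is a description with no test.

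The plants were Zhonghua 11 (ZH11) and a transgenic line in the same background, OsJAZ1-OE, in which the drought-inducible OsLEA3-1 promoter drives OsJAZ1. RNA came from whole shoots at the four-leaf stage, under normal conditions (3 libraries per genotype) or after water was withheld until the soil held 10.0 to 15.0% water (2 libraries per genotype). The overexpressing plants of the RNA-seq experiment are labelled as a single transgenic line (OE-1), and all 4 groups share the ZH11 background. Another drought replicate of each genotype was excluded by the authors for its low correlation and was not analysed here. The authors describe the replicates as biological. The sources used here do not say whether each was a plant, a pool or a planting, and the p values below measure the spread between these libraries.

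Many of the annotated genes belong to families of signalling proteins and transcription factors. JAZ proteins are repressors of jasmonate (JA) signalling. They bind transcription factors such as the MYC-type basic helix-loop-helix (bHLH) proteins and are degraded when the JA-isoleucine conjugate is perceived, and JAZ genes are in turn transcribed in response to JA. Calmodulin-like proteins bind calcium, MAP kinase kinase kinases (MAP3Ks) stand at the top of phosphorylation cascades, and WRKY, C2H2 zinc finger and AP2/ERF proteins are DNA-binding factors. In plants, genes of these families are known among those whose transcripts change soon after a stimulus.

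The deposited estimated counts added up to 32396154 to 34027909 per library. Most gene sums of up to 1000 were whole multiples of 1 step per library. Divided by that step, the totals ran from 28610630 to 37796237. ZH11 drought replicate 2 had the lowest, 28610630, and ZH11 drought replicate 1 had 35866605. OsJAZ1 (LOC_Os04g55920), the overexpressed gene, lay between 110.2 and 147 FPKM in the 5 ZH11 libraries and between 1177 and 1388 FPKM in the 5 OsJAZ1-OE libraries. The shoot label was met by the marker lists: 6 photosynthesis genes summed to between 6727 and 11590 FPKM per library and 5 root genes to between 11.4 and 17.3 FPKM. In ZH11 drought the 2 sums were 7438 and 16.5 FPKM in replicate 1 and 7675 and 17.3 FPKM in replicate 2. Between the ZH11 drought libraries the correlation of log2 counts scaled to library size was 0.986, against 0.988 to 0.991 between the other replicate pairs. The gap rule, applied in each direction to all replicate pairs with no further limit, found 148 genes for ZH11 drought replicate 1 over replicate 2. It found 50 to 76 genes in the other 15 directions. For genes whose most abundant transcript has at least 300 bases, these counts were 104 against 12 to 30. With the limit on the other genotype's pair applied, the reverse choice, high in ZH11 drought replicate 2, held 40 genes. Choices of the same form held 32 genes for OsJAZ1-OE drought replicate 1 and 45 for replicate 2.

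The 125 genes were of 2 kinds. In 30 of them the most abundant transcript was shorter than 300 bases, against 0.958% of the 18276 genes that reached 2 FPKM. These short genes rested on few fragments. Their median estimated count in ZH11 drought replicate 1 was 0.9, 23 of the 30 had fewer than 10 counts, and 12 were at 0 in the other 9 libraries. LOC_Os02g38530, for example, had 30.1 FPKM from 0.9 counts on a transcript of 192 bases and was at 0 elsewhere. A level of a few FPKM on such a transcript stands for about 1 fragment, so the gap of these genes was not measurable at this depth. In LOC_Os06g09940, which had the most counts of the 30, the ZH11 drought libraries held 371 and 333 counts at 23.3 and 0.840 FPKM, so that the gap was in FPKM and not in counts. With 1 count added to each library, the counts of ZH11 drought replicate 1 were at least 3 times those of replicate 2 in 2 of the 30 short genes and in 93 of the other 95. The exceptions among the 95 were LOC_Os01g42550, on 68.1 and 53.5 counts, and LOC_Os12g42510, on 51.9 and 52.0 counts, both of unknown function. None of the 30 has an annotation or name in the sources used here. The other 95 genes had a median of 587 counts and 27.1 FPKM in ZH11 drought replicate 1, 9 of them had fewer than 50 counts, and 47 carry an annotation or a name. Annotations come from the authors' tables of genes that they called drought-responsive in ZH11 alone or in OsJAZ1-OE alone. Those calls rest on the same libraries, so having an annotation is itself a selection on these data. Genes absent from those tables, such as those called in both genotypes, are mostly without one. The values that follow are for the 95 longer genes unless all 125 are named.

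Summed over the 95 genes, the level was 5229 FPKM in ZH11 drought replicate 1 and 785 FPKM in replicate 2. It was 661, 735 and 774 FPKM in ZH11 normal, 719, 576 and 685 FPKM in OsJAZ1-OE normal, and 1549 and 1184 FPKM in OsJAZ1-OE drought. In these sums ZH11 drought replicate 2 lay close to the normal libraries, and both OsJAZ1-OE drought libraries lay between the ZH11 drought libraries. The choice required replicate 2 to be low against replicate 1, which favours a low sum there. The highest of the 10 libraries was ZH11 drought replicate 1 for 91 of the 95 genes. ZH11 drought replicate 2 was above all 3 ZH11 normal libraries for 39 genes (41.1%) and below all 3 for 35 (36.8%). In the rest it lay among them. Of the 18101 genes of at least 300 bases that reached 2 FPKM in ZH11 drought replicate 1, 43.4% were above and 38.0% below. The shares of the chosen genes were thus near those of all such genes. Both OsJAZ1-OE drought libraries lay between the 2 ZH11 drought libraries for 84 genes, against 1273 of the 18101 genes. The choice required a wide gap in ZH11 and a close OsJAZ1-OE pair, which favours this order.

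**Figure D1:**
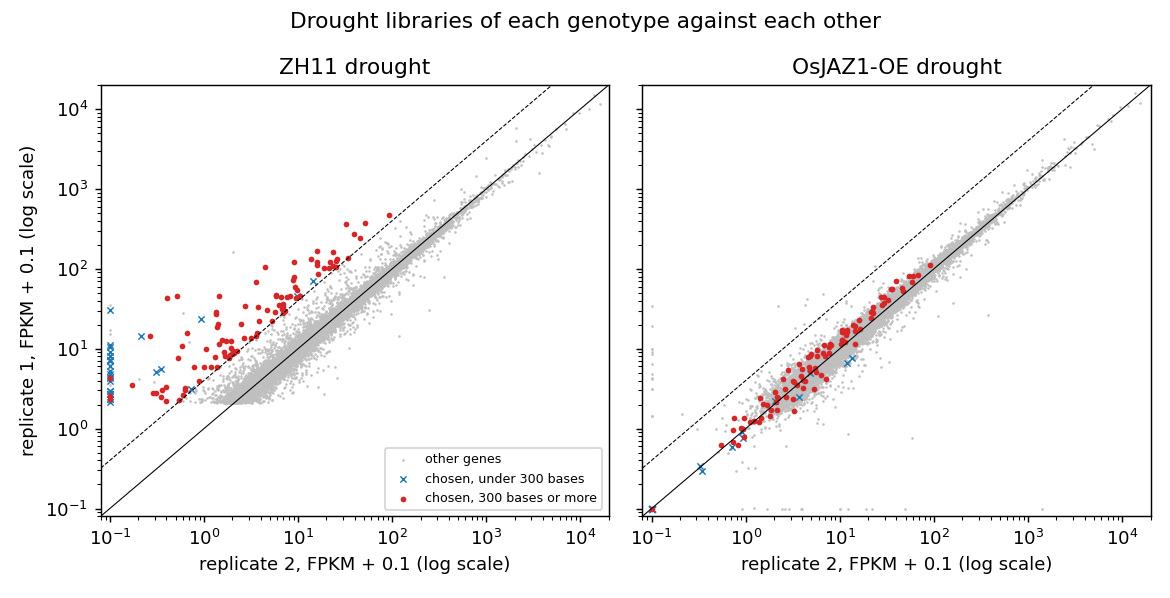
Level in drought replicate 1 (vertical axis) against replicate 2 (horizontal axis), in FPKM + 0.1 on log scales, for the 18276 genes with at least 2 FPKM in ZH11 drought replicate 1; the solid line marks equal levels and the dashed line a 4-fold ratio. The 95 chosen genes of 300 bases or more (red dots) and the 30 shorter ones (blue crosses, several at 0 in replicate 2) lie about or above the dashed line in ZH11, where the choice put them, and along the solid line in OsJAZ1-OE.

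Genes of JA signalling were among the most abundant of the chosen genes. OsJAZ10 (LOC_Os03g08330), a JAZ repressor on chromosome 3 (4248884 to 4249985), was at 369.6 and 51.8 FPKM in ZH11 drought replicates 1 and 2. It was at 34.6, 37.2 and 45.1 FPKM in ZH11 normal, 37.4, 27.0 and 38.2 FPKM in OsJAZ1-OE normal, and 82.8 and 67.6 FPKM in OsJAZ1-OE drought. All drought libraries thus lay above all normal libraries, and ZH11 drought replicate 1 lay far above the rest. OsJAZ13 (LOC_Os10g25230) was at 32.7 and 3.65 FPKM in ZH11 drought, at 0.484 to 0.738 FPKM in ZH11 normal, at 0.233 to 0.708 FPKM in OsJAZ1-OE normal, and at 5.76 and 4.61 FPKM in OsJAZ1-OE drought. OsJAZ9 (LOC_Os03g08310), also on chromosome 3 and 15842 bases from OsJAZ10, was at 5.79 and 1.29 FPKM in ZH11 drought, on 76.6 and 16.7 counts. Its OsJAZ1-OE drought libraries were at 2.30 and 2.11 FPKM and the 6 normal libraries at 0.352 to 1.21 FPKM. OsJAZ11 (LOC_Os03g08320) lies between them and was not chosen, at 13.2 and 6.88 FPKM in ZH11 drought. The 3 neighbours are relatives, and how the counting split fragments between JAZ genes was not tested.

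OsbHLH148 (LOC_Os03g53020), a bHLH factor of JA signalling, was at 359 and 32.0 FPKM in ZH11 drought. It was at 21.8, 19.9 and 21.8 FPKM in ZH11 normal, 21.1, 16.9 and 19.2 FPKM in OsJAZ1-OE normal, and 68.8 and 58.1 FPKM in OsJAZ1-OE drought. The difference between its ZH11 drought libraries was thus 11.2-fold (0.1 FPKM added to each), where replicate 2 was 1.51-fold above the ZH11 normal mean. LOC_Os04g23550, annotated as another bHLH protein, was at 121 and 15.9 FPKM in ZH11 drought, at 4.06, 1.93 and 1.88 FPKM in ZH11 normal, at 1.37 to 1.57 FPKM in OsJAZ1-OE normal, and at 17.4 and 16.2 FPKM in OsJAZ1-OE drought. For this gene ZH11 drought replicate 2 and the OsJAZ1-OE drought libraries were alike. LOC_Os01g56690, a further gene annotated as a helix-loop-helix protein, was at 10.2 and 1.84 FPKM in ZH11 drought and at 1.61 and 2.06 FPKM in OsJAZ1-OE drought, with at most 0.127 FPKM in any normal library. The list of JA synthesis and turnover held 2 chosen genes, LOC_Os11g05380 and LOC_Os12g05440. Neither is annotated in the sources used here. LOC_Os12g05440 was at 11.4 and 1.33 FPKM in ZH11 drought and at 1.16 and 1.11 FPKM in OsJAZ1-OE drought.

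The chosen genes also held calcium sensors and MAP3Ks. LOC_Os06g46950, annotated as an EF hand protein and so a candidate calcium binder, was at 269.6 and 39.0 FPKM in ZH11 drought, at 28.4, 45.2 and 40.4 FPKM in ZH11 normal, at 28.6, 20.4 and 35.4 FPKM in OsJAZ1-OE normal, and at 80.2 and 59.1 FPKM in OsJAZ1-OE drought. ZH11 drought replicate 2 lay within the range of the ZH11 normal libraries. The calmodulin-like gene OsCML31 (LOC_Os01g72530) was at 167 and 15.6 FPKM in ZH11 drought and at 44.8 and 27.1 FPKM in OsJAZ1-OE drought, with 9.01 to 13.8 FPKM in the 6 normal libraries. Of the 3 MAP3K genes, MAP3K.6 (LOC_Os01g50410) was at 44.1 and 6.55 FPKM in ZH11 drought, at 0.820 to 1.47 FPKM in ZH11 normal and at 8.10 and 6.88 FPKM in OsJAZ1-OE drought. Its neighbour MAP3K.7 (LOC_Os01g50420) was at 27.1 and 1.25 FPKM in ZH11 drought, at 0.329 to 0.541 FPKM in ZH11 normal and at 3.71 and 3.14 FPKM in OsJAZ1-OE drought. MAP3K.6 and MAP3K.7 lie 4301 bases apart on chromosome 1. LOC_Os01g50400, the next gene and in the MAP kinase list, was not chosen: it was at 27.3 and 18.5 FPKM in ZH11 drought and at 16.8 and 10.5 FPKM in OsJAZ1-OE drought. MAP3K.19 (LOC_Os05g46760) was at 33.3 and 6.74 FPKM in ZH11 drought and at 11.0 and 6.76 FPKM in OsJAZ1-OE drought, with 2.45 to 3.42 FPKM in the normal libraries.

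Transcription factors of the WRKY, C2H2 and AP2/ERF families made up another group. OsWRKY71 (LOC_Os02g08440), a WRKY factor known in rice as a repressor of gibberellin signalling in the aleurone, was at 123 and 25.4 FPKM in ZH11 drought, at 11.3, 10.7 and 13.8 FPKM in ZH11 normal, at 13.1, 8.58 and 10.2 FPKM in OsJAZ1-OE normal, and at 44.2 and 29.1 FPKM in OsJAZ1-OE drought. OsWRKY24 (LOC_Os01g61080) was at 13.5 and 2.59 FPKM in ZH11 drought. Its second drought library lay below the 3 ZH11 normal libraries (3.59 to 4.56 FPKM). WRKY108 (LOC_Os01g60600) was at 8.14 and 1.81 FPKM in ZH11 drought and at 3.06 and 2.50 FPKM in OsJAZ1-OE drought. The C2H2 gene ZOS3-22 (LOC_Os03g60570) was at 77.9 and 8.95 FPKM in ZH11 drought, at 0.818 to 1.32 FPKM in the 6 normal libraries and at 14.6 and 11.4 FPKM in OsJAZ1-OE drought. The neighbouring C2H2 gene LOC_Os03g60560 was not chosen. Its ZH11 drought libraries were at 34.8 and 37.0 FPKM, so 2 adjacent genes of a family differed in whether the ZH11 drought libraries stood apart.

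Of the AP2/ERF genes, LOC_Os04g52090 was at 122 and 21.6 FPKM in ZH11 drought, at 17.8, 28.3 and 26.4 FPKM in ZH11 normal and at 41.0 and 32.5 FPKM in OsJAZ1-OE drought. LOC_Os02g52670 was at 31.4 and 6.61 FPKM in ZH11 drought and at 11.5 and 10.1 FPKM in OsJAZ1-OE drought. LOC_Os09g28440 was at 44.99 and 0.417 FPKM in ZH11 drought, on 776 and 7.1 counts, and at 4.53 and 6.21 FPKM in OsJAZ1-OE drought. Its 6 normal libraries lay between 0.253 and 0.512 FPKM, so ZH11 drought replicate 2 was at the normal level. The DREB1 proteins are AP2 factors known for binding the dehydration-responsive element of cold-induced genes. DREB1H (LOC_Os09g35020) was at 14.4 and 0.170 FPKM in ZH11 drought and at 1.63 and 1.74 FPKM in OsJAZ1-OE drought. It lies on chromosome 9 (20399334 to 20400263) between the 2 DREB1 genes that were left out by name. Of these, OsDREB1B was at 162 and 1.91 FPKM in ZH11 drought and at 23.1 and 16.7 FPKM in OsJAZ1-OE drought, and OsDREB1A was at 27.9 and 0.501 FPKM and at 4.20 and 4.14 FPKM. DREB1E (LOC_Os04g48350), at 3.42 and 0.0723 FPKM in ZH11 drought, and DREB1G (LOC_Os02g45450), at 2.70 and 0.186 FPKM, were also chosen, on 55.8 and 68.1 counts in replicate 1. For all 5 of these DREB1 genes ZH11 drought replicate 2 lay below the highest ZH11 normal library.

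Enzymes, ubiquitin ligases and genes of unknown function completed the abundant part. The gene with the highest level in ZH11 drought replicate 1 was LOC_Os04g41960, annotated as an NADP-dependent oxidoreductase, at 469.9 and 93.0 FPKM in ZH11 drought. It was at 20.8, 20.5 and 24.4 FPKM in ZH11 normal, 22.5, 23.3 and 24.5 FPKM in OsJAZ1-OE normal, and 113 and 91.7 FPKM in OsJAZ1-OE drought, so 3 of the 4 drought libraries were alike. OsABA8ox1 (LOC_Os02g47470), an abscisic acid (ABA) 8'-hydroxylase that breaks ABA down, was at 29.1 and 5.6 FPKM in ZH11 drought, at 1.82 to 2.18 FPKM in ZH11 normal and at 10.6 and 7.65 FPKM in OsJAZ1-OE drought. OsNCED3 (LOC_Os03g44380), a dioxygenase of ABA synthesis that was not chosen, was at 28.3 and 30.9 FPKM in the same ZH11 drought libraries. The ABA genes of the list therefore differed in whether the 2 libraries stood apart. LOC_Os02g33680, annotated as a U-box protein and so a likely ubiquitin ligase, was at 121 and 8.92 FPKM in ZH11 drought, at 6.05 to 7.23 FPKM in ZH11 normal and at 27.8 and 22.6 FPKM in OsJAZ1-OE drought. LOC_Os01g64470, with a domain of harpin-induced proteins, was at 107 and 4.30 FPKM in ZH11 drought, and its replicate 2 lay below the 3 ZH11 normal libraries (7.5 to 8.0 FPKM). LOC_Os01g28790, annotated as a PRAS-rich protein, was at 132 and 25.9 FPKM in ZH11 drought. LOC_Os01g09220, annotated as a CACTA transposon protein, had the largest ratio of the annotated genes, at 43.6 and 0.301 FPKM (109-fold with 0.1 FPKM added to each). Its OsJAZ1-OE drought libraries were at 3.80 and 3.10 FPKM and the normal libraries at up to 1.69 FPKM. LOC_Os01g72360 and LOC_Os03g52410, annotated only as expressed proteins, had ratios of 24.0 and 21.1.

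**Figure D2:**
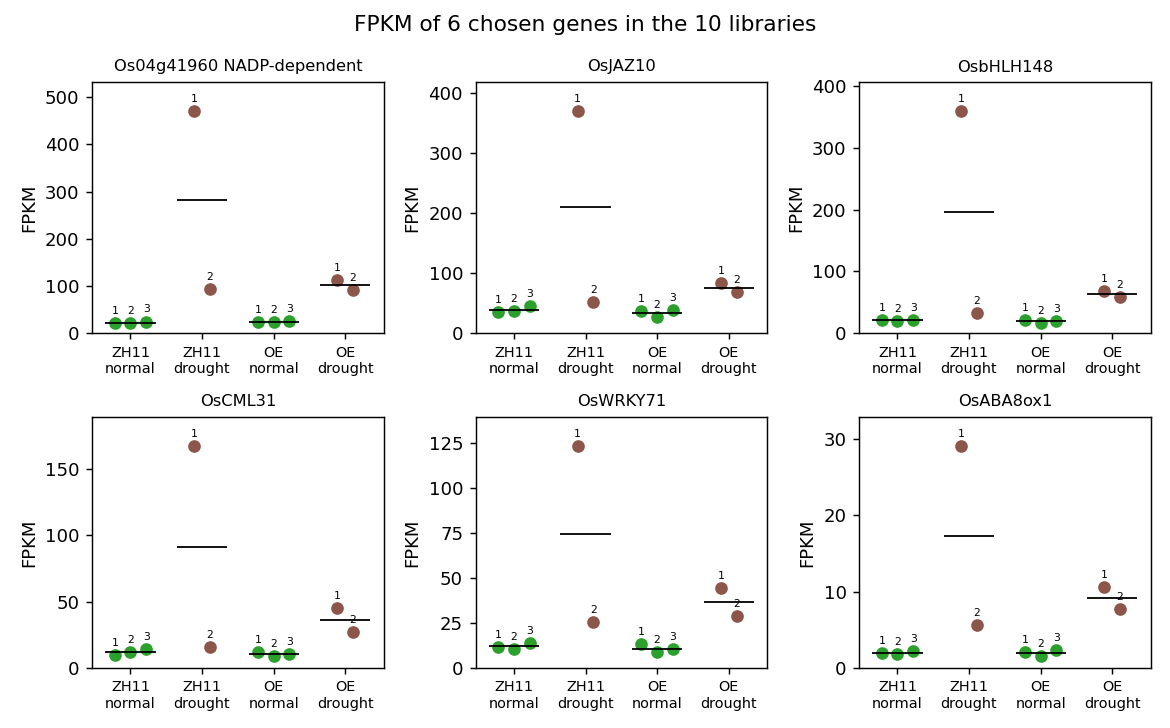
FPKM (vertical axis, linear from 0) of 6 chosen genes in each library of the 4 groups (horizontal axis), with replicate numbers beside the points and the group mean as a bar; Os04g41960 is the oxidoreductase gene. In each panel ZH11 drought replicate 1 is the highest point, at 29.1 FPKM for OsABA8ox1 up to 469.9 FPKM for Os04g41960.

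**Figure D3:**
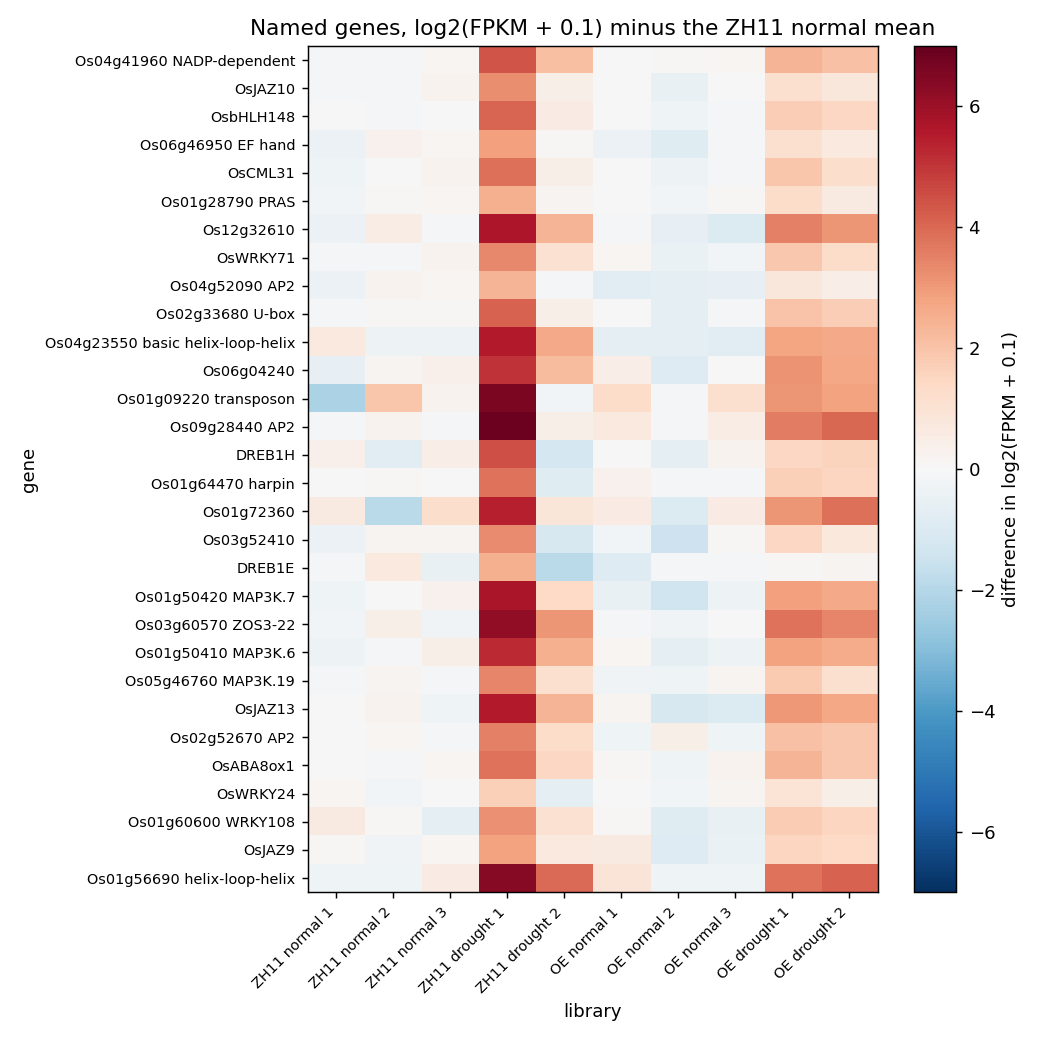
Colour shows log2(FPKM + 0.1) minus the mean of the 3 ZH11 normal libraries for the 30 genes named by rule (rows) in the 10 libraries (columns, OE for OsJAZ1-OE). ZH11 drought replicate 1 is the darkest column, and the 2 OsJAZ1-OE drought columns are also red for most genes, at 82.8 and 67.6 FPKM for OsJAZ10, for example.

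Whether these genes responded to drought in OsJAZ1-OE was tested on the 5 libraries of that genotype, whose difference between conditions the choice did not use. The choice did require the 2 drought libraries to be close, a condition that 98.95% of the genes with at least 2 FPKM in ZH11 drought replicate 1 met. Calls required a change of at least 1 on the log2 scale and an adjusted p below 0.05 in edgeR's quasi-likelihood test, with Benjamini-Hochberg adjustment over all genes tested. Of the 125 genes 94 passed the filter on low counts, and 48 were called higher under drought, where 4.46% of all 24360 genes tested were called higher. None was called lower, where 6.75% of all genes tested were. At an unadjusted p under 0.05 in edgeR, 2 of the 94 were lower, against 24.6% of all genes tested. By the same limits on adjusted p and fold, DESeq2 called 0 lower and limma-trend on log2(FPKM + 0.1) called 4 lower, 3 of them on transcripts under 300 bases. The 6.75% is the share in edgeR, and no share of all genes is given here for these 2 tools. All 48 calls were among the 95 longer genes, of which 89 passed the filter. The filter can be passed through the drought libraries alone, and among the 75 chosen genes that reached its level in at least 2 OsJAZ1-OE normal libraries 33 were called higher. The share of all genes called under that restriction was not computed, and the 4.46% is not its counterpart. The median log2 fold change was 1.05 over the 94 genes (quartiles 0.40 and 1.81) and 0.01 over all genes tested (quartiles −0.30 and 0.25). Both sets hold genes that passed the filter through the drought libraries alone. In the 95 longer genes, both drought libraries lay above all 3 normal libraries of OsJAZ1-OE in 74 cases, where 35.4% of all genes of that length and at least 2 FPKM in ZH11 drought replicate 1 did. In 1 case both lay below, where 29.5% did.

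The largest increase among the annotated genes was that of the helix-loop-helix gene LOC_Os01g56690, which went from 0.127, 0 and 0 FPKM to 1.61 and 2.06 FPKM in OsJAZ1-OE. Its increase of 5.08 on the log2 scale (SE 0.75, edgeR adjusted p = 0.0012) depends on the prior count, since 2 of the 3 normal libraries were at 0. MAP3K.7 (LOC_Os01g50420) rose by 3.92 on that scale (SE 0.36, edgeR adjusted p = 1.3e-04). LOC_Os12g32610, an expressed protein, went from 2.27, 1.66 and 1.25 FPKM to 29.4 and 21.7 FPKM, an increase of 3.82 (SE 0.25, edgeR adjusted p = 2.2e-05). ZOS3-22 (LOC_Os03g60570) rose by 3.81 (SE 0.24, adjusted p = 2.0e-05) and LOC_Os04g23550, the bHLH gene, by 3.67 (SE 0.15, adjusted p = 2.6e-06), both on the log2 scale in edgeR. All 5 genes were higher in both drought libraries than in any normal library of their genotype, which follows from picking the largest increases. LOC_Os01g56690, MAP3K.7 and ZOS3-22 passed the filter only through the drought libraries, where they were high, so that they could enter the test only if they differed. In all this holds for 15 of the 48 genes called higher, OsJAZ9, OsJAZ13, DREB1G and DREB1H included.

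Smaller increases were measured for the abundant genes of JA and calcium signalling. In edgeR's test OsbHLH148 (LOC_Os03g53020) rose by 1.60 on the log2 scale (SE 0.09, adjusted p = 1.3e-05), OsJAZ10 (LOC_Os03g08330) by 1.06 (SE 0.14, adjusted p = 7.1e-04) and OsCML31 (LOC_Os01g72530) by 1.72 (SE 0.19, adjusted p = 3.3e-04). The oxidoreductase gene LOC_Os04g41960 rose by 2.05 (SE 0.07, edgeR adjusted p = 9.0e-07) and OsABA8ox1 (LOC_Os02g47470) by 2.16 (SE 0.18, adjusted p = 7.2e-05). With all 10 libraries in 1 fit, OsbHLH148 (edgeR adjusted p = 0.0732), OsJAZ10 (0.166) and OsCML31 (0.0688) did not pass, at log2 changes of 1.60, 1.05 and 1.72. Over all settings the log2 change of OsJAZ10 ran from 0.912 to 1.16, so it fell under the fold limit in some. OsWRKY24 (LOC_Os01g61080) passed the test at 0.62, under the fold limit (edgeR adjusted p = 0.018), and did not pass without OsJAZ1-OE drought replicate 1 (0.43, adjusted p = 0.145) or without OsJAZ1-OE normal replicate 2 (0.53, adjusted p = 0.0601). OsJAZ9 (LOC_Os03g08310), at 1.60 (edgeR adjusted p = 0.028), did not pass when any of 4 libraries was left out (adjusted p of 0.0716 to 0.118) and with DESeq2 (0.0584). DREB1H (LOC_Os09g35020), at 1.74 (edgeR adjusted p = 0.028), also lost its call when any of 4 libraries was left out (adjusted p of 0.0521 to 0.132), with no filter (0.0547) and with DESeq2 (0.148). LOC_Os03g52410, at 1.65 (edgeR adjusted p = 0.020), lost its call without OsJAZ1-OE drought replicate 1 (adjusted p = 0.166) and with limma-trend on log2(FPKM + 0.1) (0.0564).

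Not all of the chosen genes moved in OsJAZ1-OE. LOC_Os06g43810, named here after its values were seen, was at 164 and 23.3 FPKM in ZH11 drought, on either side of the 58.9 to 62.0 FPKM of ZH11 normal. It was at 56.1, 54.7 and 54.5 FPKM in OsJAZ1-OE normal and 55.8 and 35.3 FPKM in OsJAZ1-OE drought, a change of −0.24 on the log2 scale that did not pass (edgeR adjusted p = 0.29). LOC_Os11g05380, of the JA turnover list, was at 22.1 and 3.74 FPKM in ZH11 drought and changed by −0.45 in OsJAZ1-OE (edgeR adjusted p = 0.32). When all 10 libraries shared 1 estimate of spread, the gap between the ZH11 drought libraries entered that estimate. In that fit 24 of the chosen genes were called higher in OsJAZ1-OE in place of 48. The 4.46% of all genes called higher belongs to the fit on 5 libraries, and no share for the fit on 10 is given here.

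**Figure D4:**
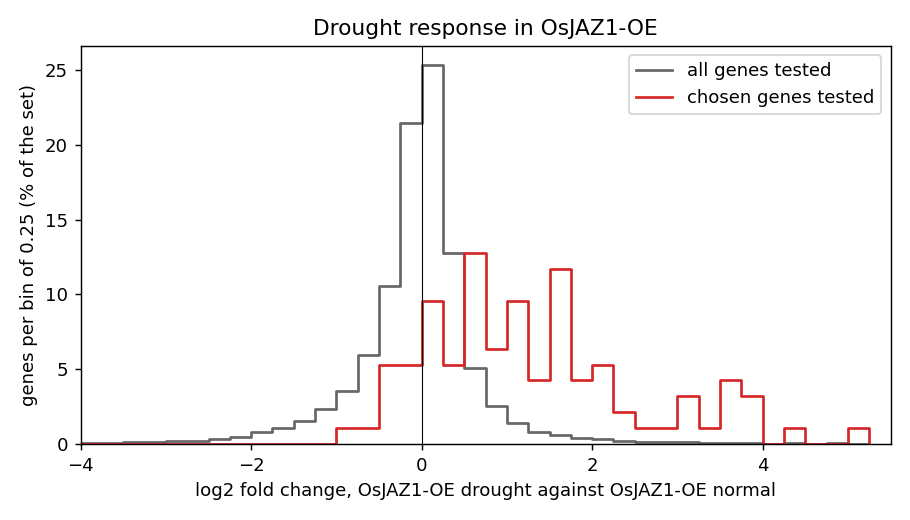
Share of genes (vertical axis, % of each set per bin of 0.25) by log2 fold change in OsJAZ1-OE drought against OsJAZ1-OE normal (horizontal axis), for the 94 chosen genes tested (red) and all 24360 genes tested (grey). The chosen genes have their median at 1.05 and all genes at 0.01, with genes that passed the filter through the drought libraries alone in both sets.

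Under normal conditions the chosen genes were compared between the genotypes on the 6 normal libraries, none of which the choice used. Of the 125 genes 81 passed the filter. None was called higher in OsJAZ1-OE, where 1.36% of 23985 genes tested were, and 1 was called lower, where 0.225% were. At an unadjusted p under 0.05 in edgeR, 4 of the 81 (4.94%) were higher and 12 (14.8%) lower, against 9.56% and 9.15% of all genes tested. By the limits on adjusted p and fold, neither DESeq2 nor limma-trend called any higher. The number called over all genes differed by tool. It was 326 higher in edgeR and 176 in limma-trend on log2(FPKM + 1). The gene called lower, LOC_Os06g12640, has no annotation in the sources used here. It was at 3.29, 12.5 and 8.92 FPKM in ZH11 normal and at 0.936, 0.970 and 0.741 FPKM in OsJAZ1-OE normal, a log2 difference of −3.22 (edgeR adjusted p = 0.0050). In ZH11 drought it was at 2.91 and 0.533 FPKM, both below its lowest ZH11 normal library. The AP2 gene LOC_Os04g52090 had −0.80 (edgeR adjusted p = 0.057), and passed with DESeq2 (adjusted p = 0.0033), with no filter (0.011) and without ZH11 normal replicate 1 (0.0047). The median log2 fold change was −0.10 over the 81 genes (quartiles −0.30 and 0.11) and 0.01 over all genes tested.

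The chosen genes also differed among libraries that the choice did not read. Of the 65 longer genes with a mean of at least 1 FPKM in OsJAZ1-OE normal, 44 (67.7%) were lowest in replicate 2, where 31.1% of 20819 genes were lowest in that library. Their median deviation from the gene's mean over the 3 libraries was −0.19 on the log2 scale in replicate 2, and 0.09 and 0.06 in replicates 1 and 3. OsbHLH148 (LOC_Os03g53020) was at 21.1, 16.9 and 19.2 FPKM in these 3 libraries, and OsJAZ10 (LOC_Os03g08330) at 37.4, 27.0 and 38.2 FPKM. Of 68 longer genes with at least 1 FPKM in ZH11 normal, 34 (50%) were lowest in replicate 1, against 28.9% of 20544 genes, and 31 (45.6%) were highest in replicate 3, against 28.7%. Unlike the normal libraries, the OsJAZ1-OE drought libraries were read by the choice, which held them to within 2-fold. Between these 2 libraries 76 of the 95 genes (80.0%) were higher in replicate 1. The share was 46.0% of all genes of that length and level, which were not held to that limit. The median log2 ratio was 0.29 over the 95 genes and −0.02 over all. The genes are not independent of each other, and these counts describe single libraries.

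Other gene lists set the scale of the difference between the ZH11 drought libraries. The JAZ list leaves out OsJAZ1, which was at 147 and 126 FPKM in ZH11 drought. All 9 JAZ genes of the list with at least 1 FPKM in ZH11 drought were higher in replicate 1, by a median log2 ratio of 1.16. So were 21 of 23 WRKY genes (1.19), all 6 calcium sensors (1.62) and 8 of 9 genes of the MAP kinase list (0.81). These medians hold genes chosen for that ratio, namely 3 JAZ genes, 5 WRKY genes, 2 calcium sensors and 3 MAP kinase genes. Without the chosen genes, all 6 JAZ genes (median 0.63), 16 of 18 WRKY genes (0.61), all 4 calcium sensors (1.10) and 5 of 6 MAP kinase genes (0.50) were higher in replicate 1. Of the 3 genes in the JA-linked bHLH list (median 2.91) only LOC_Os10g42430, at 0.51, was not chosen. The medians of the other lists were at most 0.15. Without the chosen genes, 1 of 6 ERF genes (median −0.11) and 3 of 5 C2H2 genes (0.01) were higher in replicate 1. So were 5 of 10 genes of JA synthesis and turnover (0.06) and 2 of 6 of ABA synthesis and turnover (−0.07). All 8 genes of the LEA protein and dehydrin list, protective proteins of drying tissue, were lower in replicate 1 (median −1.17), and so were all 8 heat shock genes (−0.75). Photosynthesis genes were alike in both (median 0.01, range −0.20 to 0.08), as were 10 genes of the circadian clock (median 0.00, range −0.09 to 0.37). Over all 20927 genes with at least 1 FPKM the median was 0.01, and 10946 of them were higher in replicate 1. Between the OsJAZ1-OE drought libraries the medians were 0.27 for the JAZ genes, 0.48 for the WRKY genes, 0.33 for the calcium sensors, 0.29 for the LEA genes and −0.40 for the heat shock genes. In whole shoots, fewer cells of a type and less RNA per cell cannot be told apart, and the part that any of these groups has in the gap was not tested.

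**Figure D5:**
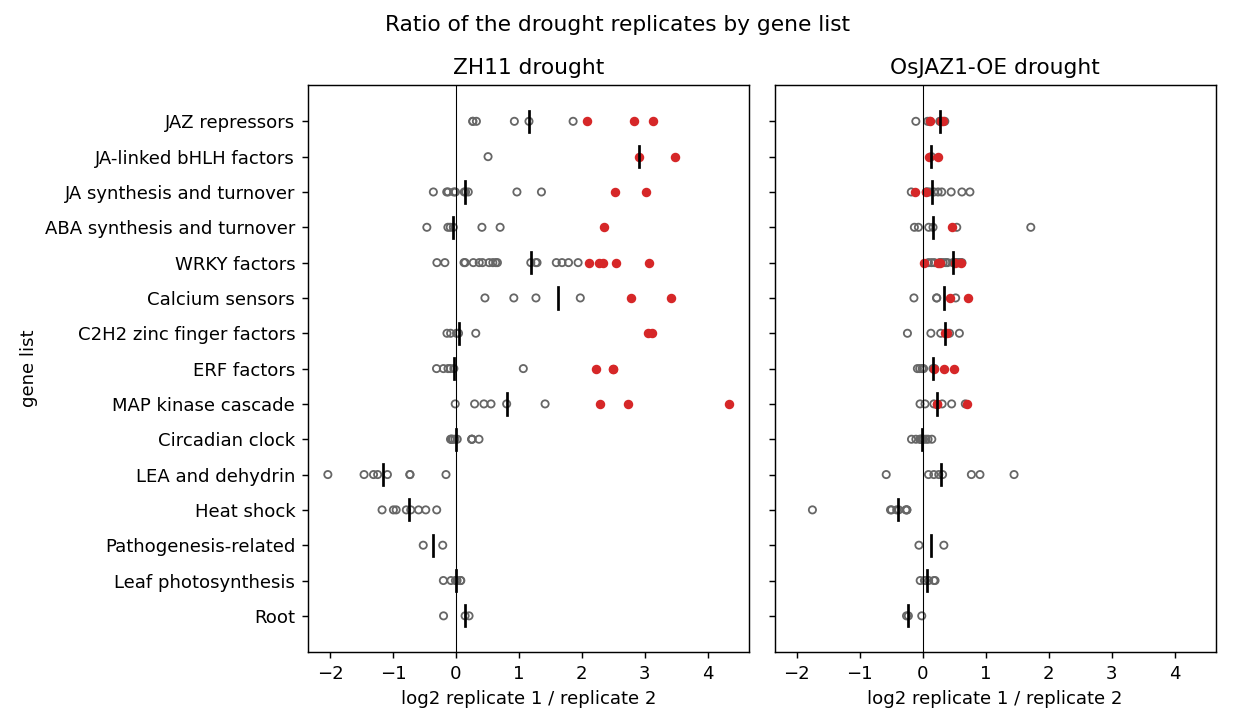
Log2 ratio of drought replicate 1 to replicate 2 (horizontal axis, 0.1 FPKM added to each) for the genes of 15 lists (rows) with at least 1 FPKM in ZH11 drought, in ZH11 (left) and OsJAZ1-OE (right). Filled red points are chosen genes, open circles other genes and black bars medians, which in ZH11 run from −1.17 for LEA and dehydrin genes to 2.91 for 3 bHLH genes.

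In OsJAZ1-OE the same lists were counted over chosen genes and genes that were not chosen together. The limit was an adjusted p under 0.05 in edgeR with no fold limit, which 19.5% of all genes tested passed as higher under drought and 20.5% as lower. Of 10 JAZ genes of the list, which leaves out OsJAZ1, 7 rose and none fell. The chosen genes OsJAZ9, OsJAZ10 and OsJAZ13 were among those that rose. Of these, OsJAZ9 and OsJAZ13 passed the filter only through the drought libraries, so they could enter the test only if they differed. The JAZ genes with the lowest p were OsJAZ12 (LOC_Os10g25290), not chosen, which rose by 1.70 on the log2 scale (edgeR adjusted p = 1.2e-04), and OsJAZ6 (LOC_Os03g28940), which rose by 0.57 (3.2e-04). Of 24 WRKY genes 12 rose and 4 fell, of 6 calcium sensors 5 rose, of 9 MAP kinase genes 6 rose and 1 fell, of 9 ERF genes 7 rose and 1 fell, and of 7 C2H2 genes 4 rose and 1 fell. The calcium sensor gene with the lowest p was OsCML16 (LOC_Os01g04330), which rose by 2.31 on the log2 scale (edgeR adjusted p = 2.1e-05). Its ZH11 drought libraries were at 212 and 88.0 FPKM, below the 4-fold limit. Of 13 genes of JA synthesis and turnover 5 rose and 4 fell, and of 7 genes of ABA synthesis and turnover 4 rose and 2 fell. All 7 LEA and dehydrin genes tested rose, as did 5 of 8 heat shock genes, while 1 of 10 clock genes rose and 4 fell. The lists were set from general knowledge with earlier results of these data known.

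The chosen genes shared features of structure that the choice did not use. Of the 95 longer genes, 59 (62.1%) had a most abundant transcript whose length equalled its span on the chromosome, that is, with no intron, against 12.7% of the 18101 genes of that length with at least 2 FPKM in ZH11 drought replicate 1. OsJAZ10, OsCML31, MAP3K.19 and DREB1H are among the 59. The median transcript length was 1198 bases over the 95 genes and 1673 bases over the 18101. The genes were spread over all 12 chromosomes, with 29 of the 125 on chromosome 1 (23.2%, against 14.3% of the genes with at least 2 FPKM) and 23 on chromosome 2 (18.4%, against 11.8%). Within 20 kb of each other lay 3 pairs: MAP3K.6 and MAP3K.7 on chromosome 1, OsJAZ9 and OsJAZ10 on chromosome 3, and LOC_Os06g04220 and LOC_Os06g04240 on chromosome 6. LOC_Os06g04240, an expressed protein, was at 112 and 15.6 FPKM in ZH11 drought. Positions are those of the authors' files, and the sources used here name no genome build for them.

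At the limit of the choice the genes differed little from those outside it. Just inside lay LOC_Os01g62430, at 14.5 and 3.50 FPKM in ZH11 drought (a ratio of 4.04 with 0.1 FPKM added to replicate 2), LOC_Os01g19670 (4.07) and LOC_Os01g70790 (4.08). Just outside lay LOC_Os01g48446, a no apical meristem (NAC) protein gene at 25.7 and 6.36 FPKM (3.98), LOC_Os06g14420 (3.96) and the calmodulin-like gene OsCML15 (LOC_Os05g31620) at 114 and 29.0 FPKM (3.93).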

How the data were processed

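RNA-seq libraries of rice shoots were analysed from the authors' deposited tables, 1 per library, which list 101273 transcripts of 55689 gene IDs. For each transcript the authors deposited an expected count, an estimate of its fragments. Gene sums of up to 1000 were whole multiples of 1 step per library (0.884 to 1.19) for 89.6 to 90.8% of values, to within 0.01 fragments. The FPKM values were computed by the authors from fragments, transcript length and mapped fragments. Tools named in the submitters' processing notes are GATK, Picard, SAMtools 0.1.18 and TopHat2. Their roles and the genome build were not given in the sources used here.

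Both units were added up by gene, and the counts were rounded. EdgeR 4.0.16 (R 4.3.3) was used with TMM and filterByExpr on the 5 OsJAZ1-OE libraries and, separately, on the 6 normal libraries, so that the ZH11 drought libraries entered neither fit. P values were adjusted by Benjamini-Hochberg over all genes tested. Standard errors are the size of the log2 change divided by the square root of the F statistic. The fit was first tested on simulated counts. Alternatives were DESeq2 1.42.0, limma-trend 3.58.1 (log2 of FPKM plus 0.1 or 1, with a minimum of 0.5 FPKM in 2 libraries), RLE, other filters, counts divided by the step, all 10 libraries, the replicate number as a block and each library left out.

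The chosen genes and the lists were set with earlier results of these data known. Named genes have an annotation in the paper's tables or a name matched in a RefSeq gene table. They are the 12 with the highest ZH11 drought replicate 1 level, the 8 with the largest ratio, list genes of at least 5 FPKM there, the 5 largest changes each way per test, and those at the limit, with the 2 lowest p in a list. Of the listed names 65 matched the RefSeq table on the same chromosome and 68 were not in it. Promoter motifs were not searched, since no sequence was used here. The split at 300 bases, the count ratio, the list medians without the chosen genes and the filter level in normal libraries were chosen after seeing the data.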

Additional observations from a re-analysis of the deposited data

How the results depend on the processing

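The choice gave 125 genes, 74 with a ratio of at least 6, 78 with 1 FPKM added, and 90 to 171 under the other settings tried, and 95 of the 125 have a most abundant transcript of at least 300 bases. In OsJAZ1-OE the 48 calls of higher genes were 24 with all 10 libraries in 1 fit, where by construction the ZH11 drought gap widens the spread, and 36 to 50 with 1 library left out. The 0 lower calls became 4 and 3 with limma-trend on log2(FPKM + 0.1) and log2(FPKM + 1), 2 with no fold limit, and 0 to 1 with 1 library left out (1 without OsJAZ1-OE normal replicate 1). The median log2 fold change of 1.05 was 0.76 with limma-trend on log2(FPKM + 1) and 0.92 to 1.14 with 1 library left out. Between the genotypes under normal conditions, the 1 lower call became 0 with limma-trend on log2(FPKM + 1), and the 0 higher calls 0 to 1 with 1 library left out (again 1 without OsJAZ1-OE normal replicate 1). The genotype counts were otherwise 0 higher and 1 lower under each setting. Shares of all genes called are given here for the main fits only, so the counts under other fits stand without one.

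Same-numbered libraries deviated together in part only (r of 0.202 and 0.086 in OsJAZ1-OE, and 0.155, −0.002 and −0.1 under normal conditions), so the numbers were not taken as pairs. With the replicate number as a block, 48 genes were called higher and 1 lower in OsJAZ1-OE, and 0 and 1 between the genotypes. With all 10 libraries in 1 fit, 14 named genes lost their pass in OsJAZ1-OE, and of these all but DREB1H, LOC_Os03g52410, OsWRKY24 and OsJAZ9 kept it under every other setting tried. A pass here is the adjusted p alone. Of the genes that kept it, OsJAZ10 and LOC_Os01g28790 fell under the fold limit of 1 in some settings, with lowest log2 changes of 0.912 and 0.699. With 2 drought libraries per genotype, which of the ZH11 drought libraries stands for ZH11 under drought cannot be told from these data.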
